A study of Mus musculus with 157 samples.

Results

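Genes for proteins of the red cell membrane and for receptors and an enzyme of developing red cells were followed through every table of a study of N6-methyladenosine (m6A) in mouse blood formation. The genes are given by name, 8 of the 36102 gene symbols in the deposited tables, with no threshold on a measured value, although earlier results of these data were known when they were picked: Slc4a1, Ank1, Epb42, Rhag, Rhd, Epor, Tfrc and Car2. All 8 were found in the input, precipitated (IP) and 3 h labelling tables, while the chase tables held 5 of them for LT.HSC and 4 for MkP.

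The series has 157 mouse samples. The wild-type, untreated atlas covers 16 cell types with 2 input and 2 anti-m6A pulldown (IP) libraries each, 32 of either kind: LT.HSC and ST.HSC (long-term and short-term haematopoietic stem cells), MPP, LMPP, CLP, CMP, GMP and MEP (multipotent, lymphoid-primed, common lymphoid, common myeloid, granulocyte-monocyte and megakaryocyte-erythroid progenitors), MkP (megakaryocyte progenitors), Erythroid cells, Monocyte, Neutrophil, DC (dendritic cells), B_cell, CD4 and CD8. A second set compares Mettl3 -/- with wild type, both untreated, in 7 of these types, with 14 input and 14 IP libraries per genotype, and the third compares Igf2bp2 -/- with wild type, untreated, in LT.HSC, 2 libraries each. SLAM-seq, in which 4-thiouridine (4sU) built into new RNA is read as T-to-C changes, was done in wild-type cells after 3 h of labelling (12 libraries of 6 types) and after a 24 h pulse followed by a chase in uridine (21 samples of LT.HSC and MkP). Sources used here do not give the allele, the promoter of any Cre or the number of animals behind a library. The p-values therefore reflect just the spread among these libraries, and that spread may be technical.

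As background, the red cell membrane is a lipid bilayer pinned to a spectrin skeleton. The anion exchanger Slc4a1 (band 3), which trades chloride for bicarbonate, is held to spectrin through ankyrin (Ank1) and protein 4.2 (Epb42), and the Rh proteins Rhag and Rhd sit in the same complex. Erythropoietin, acting through Epor and the kinase Jak2, keeps erythroid precursors alive, the transferrin receptor Tfrc brings in the iron they need for haem, and the carbonic anhydrase Car2 makes the bicarbonate that Slc4a1 carries. METTL3 is the enzyme that writes m6A on messenger RNA, and IGF2BP2 is a protein that binds m6A-marked RNA.

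On GRCm38.p6, RefSeq places the members on 8 chromosomes, so no pair of them are neighbours: Slc4a1 at chr11:102348820-102365281, Ank1 at chr8:22974836-23150501, Epb42 at chr2:121017891-121036877, Rhag at chr17:40811099-40844094, Rhd at chr4:134864536-134896172, Epor at chr9:21958897-21963576, Tfrc at chr16:32608896-32632794 and Car2 at chr3:14886269-14900770. Each is a protein-coding gene. Each member was highest in Erythroid cells on the values as deposited, though not by the same steps. The 250 bases before the annotated start of those in the RefSeq promoter table were searched on both strands. The search was for the letters bound by GATA factors, AGATAA or TGATAA, and for CCNCNCCC, the letters bound by KLF1. The table holds 5 of the 8 members (Epb42, Rhag, Rhd, Epor and Tfrc). The following 4 are shown, 5′ to 3′ on the gene's own strand, with the matches in capitals, since they carry the GATA letters (Rhd, Epor, Epb42) or lack them (Tfrc); matches to CCNCNCCC overlap one another.
Rhd (chr4:134864286-134864535, plus strand): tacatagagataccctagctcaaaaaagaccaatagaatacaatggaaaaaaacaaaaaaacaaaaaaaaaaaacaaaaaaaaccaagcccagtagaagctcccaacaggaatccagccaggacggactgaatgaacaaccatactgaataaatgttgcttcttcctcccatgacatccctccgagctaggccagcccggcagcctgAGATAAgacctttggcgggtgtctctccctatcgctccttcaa
Epor (chr9:21963577-21963826, minus strand): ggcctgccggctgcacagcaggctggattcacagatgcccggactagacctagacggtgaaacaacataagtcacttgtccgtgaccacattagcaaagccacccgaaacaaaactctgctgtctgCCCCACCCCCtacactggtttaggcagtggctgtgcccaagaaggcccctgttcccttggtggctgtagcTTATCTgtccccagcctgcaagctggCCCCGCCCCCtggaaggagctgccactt
Epb42 (chr2:121036878-121037127, minus strand): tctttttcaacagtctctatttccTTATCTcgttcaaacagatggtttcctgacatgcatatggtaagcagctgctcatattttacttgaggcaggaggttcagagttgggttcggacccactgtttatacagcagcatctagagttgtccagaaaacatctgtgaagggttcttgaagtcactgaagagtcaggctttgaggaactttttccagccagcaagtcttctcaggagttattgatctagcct
Tfrc (chr16:32608646-32608895, plus strand): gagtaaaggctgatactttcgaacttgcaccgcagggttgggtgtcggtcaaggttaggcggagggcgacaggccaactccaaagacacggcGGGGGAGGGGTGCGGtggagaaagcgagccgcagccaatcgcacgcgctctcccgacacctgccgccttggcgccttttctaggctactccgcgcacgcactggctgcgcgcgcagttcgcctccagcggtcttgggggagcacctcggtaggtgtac
The AGATAA of Rhd lay 43 bases before the start. In Epor the same letters lay on the other strand, 54 bases before the start, between matches to CCNCNCCC that began 124, 122, 28 and 26 bases before it. Epb42 held AGATAA on the other strand, 226 bases before the start. Rhag held TGATAA on the other strand 31 bases before the start of its promoter record, inside the interval of the gene itself. The 2 Tfrc records held CCNCNCCC and neither of the GATA hexamers. Of all 32851 promoter windows of this length, 16.6% held AGATAA or TGATAA, 45.9% held CCNCNCCC and 4.52% held both kinds, as Epor did. These are matches of letters and show no binding.

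Atlas inputs held 8.23 to 21.5 M reads per library (M, 1000000 reads) and the IP libraries 10.8 to 24.6 M, while the Mettl3 set was more uneven, 3.42 to 20.2 M in the inputs and 0.819 to 22.9 M in the IP. Input values are the authors' normalised read counts, that is reads over a library's size factor. No gene lengths came with them, so levels are compared between cells and not between genes. The 2 Erythroid libraries matched their label: the 11 erythroid marker genes found in the table of 12 listed summed to 453000 and 527000 CPM (value per 1000000 of the library's sum), and the next highest values were 9890 and 2990 in DC and 3920 and 4860 in MEP. A few genes filled the Erythroid libraries, with 52.2% and 58.8% of the signal in 10 genes, against 6.29% and 6.06% in MEP. The deposited values summed to 36.6 and 42.7 M in Erythroid, to 11.04 and 11.31 M in MEP and to 83.1 and 113.2 M in Monocyte, so a fold between these types depends on the scaling, as given below. Mettl3 RNA checks the knockout labels poorly: it ranged from 274 to 931 (median 488.6) in the 14 libraries labelled knockout and from 127 to 5370 (median 427.6) in those labelled wild type. The part of the gene that was removed is not stated in the labels, and these libraries are called by their labels.

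On the deposited scaling all 8 genes were highest in Erythroid cells, and for 6 of them MEP came next; in CPM 7 were, and Epor was highest in MEP. In the comparison of Erythroid with the mean of the other 15 types, 8 of 8 members were higher by limma (adjusted p under 0.05), against 22.9% of all 17165 genes tested. Their median log2 fold change was 8.08, against -0.17 over all genes, of which 3935 were called higher and 4301 (25.1%) lower. With every library scaled to its total the median gene moved to -1.39, with 1163 higher and 10358 lower, and the 8 members were still called higher. The test of any difference among the 16 types called 8 of 8 members, as it did 92.6% of all genes. The members differed from each other in how far they were also found in progenitors. As these are bulk samples, fewer cells of a kind and less RNA per cell cannot be told apart.

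**Figure D1:**
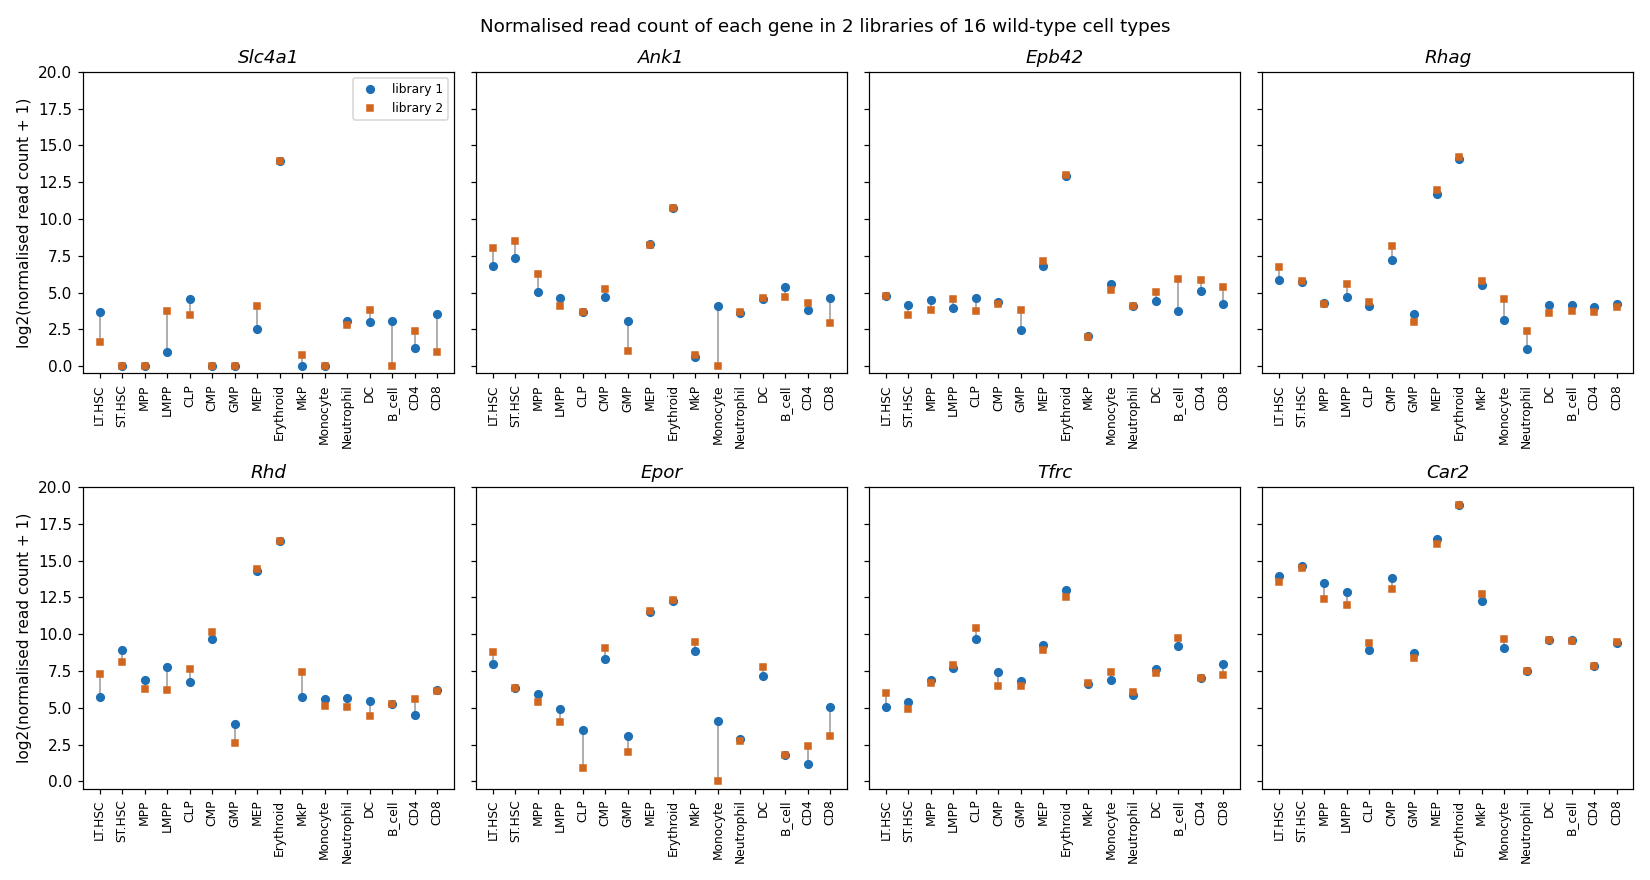
Normalised read count of each gene, as log2(value + 1) on the vertical axis, in the 2 libraries (circle and square, joined by a line) of 16 wild-type cell types. On this scaling Erythroid is the highest type in every panel, Slc4a1 and Epb42 are low elsewhere, and Epor, Rhag, Rhd and Car2 are high in MEP as well.

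The anion exchanger was near 0 outside Erythroid cells. Slc4a1 read 15751 and 15491 normalised counts in the 2 Erythroid libraries. It read 4.8 and 15.8 in MEP (9 and 30 reads), 22.3 and 9.9 in CLP, and 0 in both libraries of ST.HSC, MPP, CMP, GMP and Monocyte. The lower Erythroid value was 694 times the highest CLP value, with no overlap, and Erythroid held 99.6% of the sum of the 16 type means. The log2 fold change was 12.29 (SE 0.72, adjusted p = 1.85e-12) against the other 15 types.

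The ankyrin gene was also found in stem cells. Ank1 read 1682 and 1694 in Erythroid, 307 and 293 in MEP, 165 and 366 in ST.HSC, 111 and 259 in LT.HSC, 31.8 and 74.1 in MPP and 24.9 and 37.4 in CMP. The MEP libraries lay inside the range of ST.HSC, so these 2 types were not separated. In MkP, Ank1 was at a single read per library (0.51 and 0.73). Erythroid held 63.3% of the summed type means and was 6.18 (SE 0.65, adjusted p = 3.41e-08) above the other types on the log2 scale. In CPM, Ank1 read 46.0 and 39.7 in Erythroid, 19.2 and 40.5 in ST.HSC and 14.8 and 38.1 in LT.HSC, so Erythroid overlapped ST.HSC and held 29.4% of the summed type means.

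Protein 4.2 followed Slc4a1 more closely. Epb42 read 7609 and 8116 in Erythroid, 110 and 138 in MEP and at most 60.9 in any other library, and it was lowest in MkP at 3.1 and 2.9. Erythroid, with 94.7% of the summed type means, was 63.4 times MEP, and the groups did not overlap. The log2 difference from the other types was 8.48 (SE 0.46, adjusted p = 4.11e-13).

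The Rh pair was already high in MEP. Rhag, the ammonia channel subunit, read 17211 and 18895 in Erythroid, 3303 and 3927 in MEP, 150 and 287 in CMP and 44.3 and 55.3 in MkP. Rhd, its partner and a blood group antigen, read 84041 and 83075 in Erythroid, 20487 and 21769 in MEP, 799 and 1143 in CMP and 52.0 and 170 in MkP. Both genes fell in the same order from Erythroid to MEP to CMP with no overlap at either step, and over the 16 type means they were the most alike pair of members (Pearson r 0.960 on the log2 scale, a description over types that share libraries). The log2 differences of Erythroid from the other 15 types were 9.10 (SE 0.38, adjusted p = 3.63e-15) for Rhag and 9.54 (SE 0.44, adjusted p = 2.31e-14) for Rhd.

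Epor was shared between Erythroid cells and MEP. It read 4906 and 5201 in Erythroid, 2865 and 3020 in MEP, 469 and 723 in MkP, 311 and 532 in CMP, 253 and 442 in LT.HSC and 140 and 214 in DC, and it fell to 2.4 and 2.5 in B_cell. MkP, CMP and LT.HSC overlapped in that order, and so did each of the 7 lowest types, from CD8 down, with the type above it. Erythroid held 51.9% of the summed type means and was 1.72 times MEP. In CPM the order turned, with 134 and 122 in Erythroid and 260 and 267 in MEP, which was 2.06 times Erythroid, and Erythroid held 22.7% of the summed means. The log2 difference from the other types was 7.04 (SE 0.66, adjusted p = 5.81e-09).

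Tfrc, which dividing cells in general use to take up iron, had another order. It read 8287 and 5813 in Erythroid, 804 and 1345 in CLP, 601 and 872 in B_cell, 621 and 480 in MEP, and least in LT.HSC (31.8 and 61.9) and ST.HSC (41.9 and 29.5). CLP, B_cell and MEP overlapped one another in turn, and Erythroid stood clear of CLP by 6.56 times in the means. In CPM that was 1.93 times, 226 and 136 against 66.3 and 121, still without overlap. The lowest types in CPM were Monocyte (1.44 and 1.53) and Neutrophil (2.86 and 3.09) in place of the stem cells. Over the 16 type means on the deposited scaling the pattern of Tfrc was most like Slc4a1 (r 0.79) and Epb42 (0.76), then Rhd (0.61) and Rhag (0.60), and least like Ank1 (0.40), Car2 (0.35) and Epor (0.25). The log2 difference of Erythroid from the other types was 5.46 (SE 0.27, adjusted p = 7.38e-14).

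Car2 was expressed from the stem cell on. It read 461747 and 455293 in Erythroid, 92416 and 70538 in MEP, 25899 and 22845 in ST.HSC, 15857 and 11974 in LT.HSC, 14325 and 8434 in CMP and 11344 and 5301 in MPP. ST.HSC stood clear of MEP above and LT.HSC below it, whereas LT.HSC, CMP and MPP overlapped. The lowest level was in Neutrophil, 182 and 178, but in CPM Monocyte (6.52 and 7.14) was below Neutrophil (9.07 and 8.45). Erythroid was 7.68 (SE 0.26, adjusted p = 7.49e-17) above the other types.

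Outside the members, the genes with the most similar pattern over the 16 type means, among 11481 genes, were Tpcn1 (r 0.960), Ccdc71l and Eif2ak1 for Slc4a1. They were Ppp6r2 (0.953), Nfia and Mpg for Ank1, and Ubp1 (0.958), Rnf139 and Btnl10 for Epb42. For the Rh genes they were Cachd1 (0.970), Tspo2 and Tspan8 for Rhag and Cldn13 (0.988), Tspan8 and Slc38a5 for Rhd. For the receptors they were Sept8 (0.975), Soat2 and Aldh1a1 for Epor and Cep57 (0.924), Rbbp8 and Ska2 for Tfrc. For Car2 they were Gfi1b (0.954), a transcription factor of erythroid and megakaryocytic cells, Cd59a and Bex4. Tspan8 was shared by both Rh genes.

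The step from MEP to Erythroid divided the members. By limma 7 of 8 were higher in Erythroid, against 20.6% of all genes. Slc4a1 rose by 10.63 (SE 0.99, adjusted p = 1.54e-08) on the log2 scale and Epb42 by 5.98 (SE 0.63, adjusted p = 9.33e-08), Tfrc by 3.67 (SE 0.37, adjusted p = 5.06e-08), and Car2, Ank1, Rhag and Rhd by 2.51, 2.49, 2.32 and 1.98 (adjusted p = 6.03e-06, 0.0340, 0.00120 and 0.0131). Epor, at 0.78 (SE 0.91, adjusted p = 0.556), did not pass. Ank1 and Rhd lost the call when any 1 of the 4 libraries was left out (adjusted p 0.108 to 0.128 and 0.0590 to 0.0659), leaving 5 calls each time.

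These folds rest on the authors' size factors. All genes tested had a median log2 difference of 0.17 between Erythroid and MEP, with 3540 higher and 2253 lower calls. With every library scaled to its total the median moved to -1.20, with 950 higher and 7832 lower. After quantile normalisation it was -0.10, with 2406 higher and 3065 lower, and edgeR on the recovered reads gave 2741 higher and 2897 lower. Scaled to totals, 4 of 8 members were higher: Slc4a1 by 8.79, Epb42 by 4.16, Tfrc by 1.84 and Car2 by 0.68. Ank1, Rhag and Rhd were then at 0.67, 0.50 and 0.16 without passing, and Epor was at -1.04 (adjusted p = 0.218). In CPM of the deposited signal, Rhd read 2300 and 1950 in Erythroid and 1860 and 1920 in MEP. After quantile normalisation Car2 turned to -1.28 (adjusted p = 4.59e-04). Slc4a1, Epb42 and Tfrc were called higher under every setting tried.

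**Figure D2:**
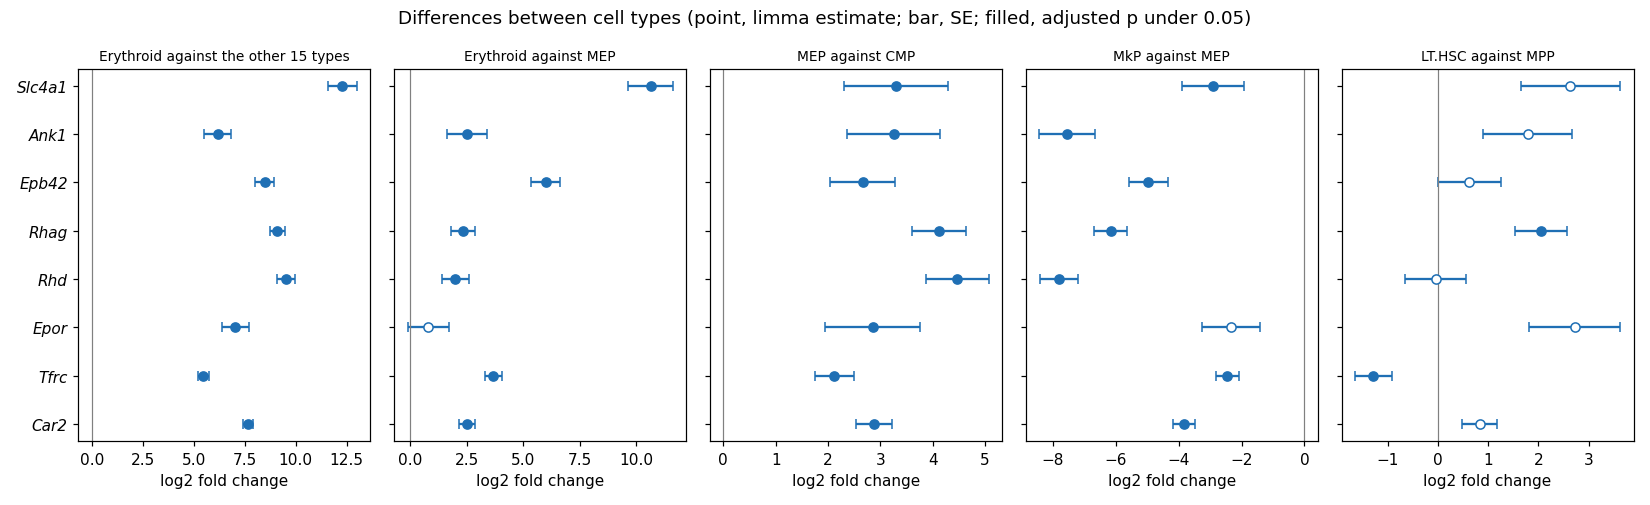
Log2 fold change (horizontal axis, a separate scale per panel) of each gene in 5 comparisons of atlas inputs, limma estimate with its SE as the bar, filled where the adjusted p is under 0.05. Slc4a1 and Epb42 have the largest steps from MEP to Erythroid, and Ank1 and Rhd the largest falls from MEP to MkP.

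From CMP to MEP all 8 members rose, against 5.79% of all genes called higher in MEP. Rhd rose by 4.46 (SE 0.60, adjusted p = 5.22e-06), Rhag by 4.11 (SE 0.52, adjusted p = 1.91e-06), Slc4a1 by 3.30, Ank1 by 3.25, Car2 by 2.88, Epor by 2.85, Epb42 by 2.66 and Tfrc by 2.12. The adjusted p-values of the last 6 were 0.0208, 0.0113, 1.12e-06, 0.0304, 0.00329 and 1.44e-04. The rise of Slc4a1 is from 0 reads in both CMP libraries to 9 and 30; against a floor of 3 counts per library it was at least 4.64-fold higher, and its call was lost without the first or second CMP or the second MEP library (adjusted p 0.0964, 0.0852 and 0.232). Ank1 and Epor lost theirs too, Epor without any 1 of the 4 libraries (0.0618 to 0.192) and Ank1 without the first CMP, the first MEP or the second MEP library (0.0952, 0.0679 and 0.0659), so that 5 or 6 calls were left.

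From MEP to MkP the membrane genes fell. Here 7 of 8 members were lower in MkP, against 14.6% of all genes: the log2 difference was -7.80 for Rhd (SE 0.60, adjusted p = 7.34e-10), -7.54 for Ank1, -6.16 for Rhag, -4.96 for Epb42, -3.81 for Car2, -2.90 for Slc4a1 and -2.45 for Tfrc. Epor read 469 and 723 in MkP against 2865 and 3020 in MEP, with no overlap. Its difference of -2.33 did not pass by limma (adjusted p = 0.0575), although it did with edgeR on recovered reads (6.50e-04). In MkP Ank1 had 1 read per library and Slc4a1 had 0 and 1, so their fitted folds depend on the added count: the ratio of read rates, MEP over MkP, was 498 (95% interval 137 to 4113.5) for Ank1 and 34.2 (5.78 to 1383.5) for Slc4a1, exact intervals that cover counting error only. The Slc4a1 call was lost without the second MEP library or either MkP library (adjusted p 0.247, 0.154 and 0.0609). This comparison and those of MEP with Erythroid and CMP share the MEP libraries.

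Between LT.HSC and MPP few members passed. In LT.HSC against MPP, 1 member was higher, against 4.89% of all genes, and 1 lower, against 6.05%. Rhag read 57.2 and 108 in LT.HSC and 18.1 and 18.0 in MPP, a log2 difference of 2.06 (SE 0.52, adjusted p = 0.0106). Tfrc read 31.8 and 61.9 against 115 and 104, a difference of -1.28 (SE 0.37, adjusted p = 0.0255). Neither pair of groups overlapped. All genes split into 840 higher and 1039 lower calls, but into 1684 and 912 when scaled to totals, where the median gene moved from 0.07 to 0.35. Epor was also apart, 253 and 442 against 61.7 and 40.4, at 2.72 with an adjusted p of 0.0560. Ank1 (111 and 259 against 31.8 and 74.1) and Car2 (15857 and 11974 against 11344 and 5301) were apart as well without passing. So were Epb42 (25.8 and 26.8 against 21.1 and 13.3) and Slc4a1, near the floor (11.5 and 2.1 against 0 and 0), while Rhd overlapped. The share of all genes that were apart in this way was not counted, so these separations are given as values only. The median log2 difference of the members was 1.31, against 0.07 over all genes. The Rhag call was lost without the second LT.HSC or either MPP library (0.130, 0.0674 and 0.0643), and the Tfrc call without the first LT.HSC or either MPP library (0.272, 0.148 and 0.0890).

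The other genes of the pathway are read against all genes, of which 20.6% were called higher and 13.1% lower in Erythroid than in MEP. Of 26 other red cell membrane and skeleton genes, 17 were higher and 0 lower in Erythroid than in MEP, led by the fatty acid receptor Cd36 at 6.58 and the actin-capping Tmod1 at 6.36. The median of that list was 2.20, against 0.17 for all genes. Of 20 genes of erythropoietin receptor signalling, 6 were higher and 2 lower, with the survival gene Bcl2l1 at 9.34, the feedback inhibitor Cish at 5.27, Stat5a at -1.53 and Stat5b at -0.99. Of 19 iron genes 7 were higher, led by the mitochondrial iron importer Slc25a37 at 8.90 and transferrin, Trf, at 5.74, and 0 lower. Of 12 other carbonic anhydrases none was higher and Car9 was lower at -1.52. Of 16 erythroid transcription factors 6 were higher, with Foxo3 at 3.05 and Klf3 at 2.26, and 4 lower, with Gata2 at -4.14 and Myb at -2.15. All 16 globin and haem genes tested were higher, with Hbb-bs at 12.18 and the haem synthesis enzyme Alas2 at 12.01. Scaled to totals, the counts higher and lower were 9 and 5 for the membrane list, 4 and 9 for signalling, 5 and 7 for iron, 0 and 6 for carbonic anhydrases, 0 and 7 for transcription factors and 10 and 0 for globin and haem. The balance turned for signalling, iron and transcription factors, in the direction in which all genes turned. Of all 16519 genes tested on that scaling 950 were higher and 7832 lower.

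Between the progenitors, 5.79% of all genes were called higher and 11.7% lower in MEP than in CMP. There 11 of 26 membrane genes were higher and 1 lower, 8 of 16 transcription factors higher and 1 lower, and 14 of 16 globin and haem genes higher. Of the 20 signalling genes 1 was higher and 6 were lower, with the cytokine receptor subunit Csf2rb at -6.61 and Cish at -2.78. From MEP to MkP, where 14.1% of all genes were higher and 14.6% lower, 14 of 26 membrane genes and 14 of 16 globin and haem genes were lower, with Ermap, a red cell surface protein, at -9.23 and Alas2 at -5.55. Of the 16 transcription factors 8 were lower, with Nfia at -6.09 and Klf1 at -4.32, and 3 higher, with Gata2 at 3.16. Signalling was even, with 5 higher and 4 lower.

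The antibody pulled down the members unequally. For each type the log2 IP value minus the log2 input value was taken per 10000000 with a pseudocount of 1, and it was ranked among 15618 genes. IP and input were scaled separately, so only ranks within a type and differences between types are read. Tfrc was above the median gene in 16 of 16 types, from the 59.3rd percentile in Monocyte to the 98.2nd in LMPP, and so was Ank1, from the 56.9th in ST.HSC to the 99.3rd in CD8. Car2 and Rhd were below the median gene in all 16, Car2 between the 8.32nd and 48.3rd percentile and Rhd between the 1.74th and 46.9th. Slc4a1 and Epb42 lay above the median in 12 types each, Rhag in 4 and Epor in 1. Several of these types were near the floor, where the rank rests on the added count. Slc4a1 had 0 input reads in CMP, GMP and Monocyte, which count as above, and Epor had 2 and 0 in Monocyte, its 1 type. The Rhag types, B_cell, CLP, Monocyte and Neutrophil, had 1 to 22 input reads per library, and Ank1 had 1 per library in MkP.

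**Figure D3:**
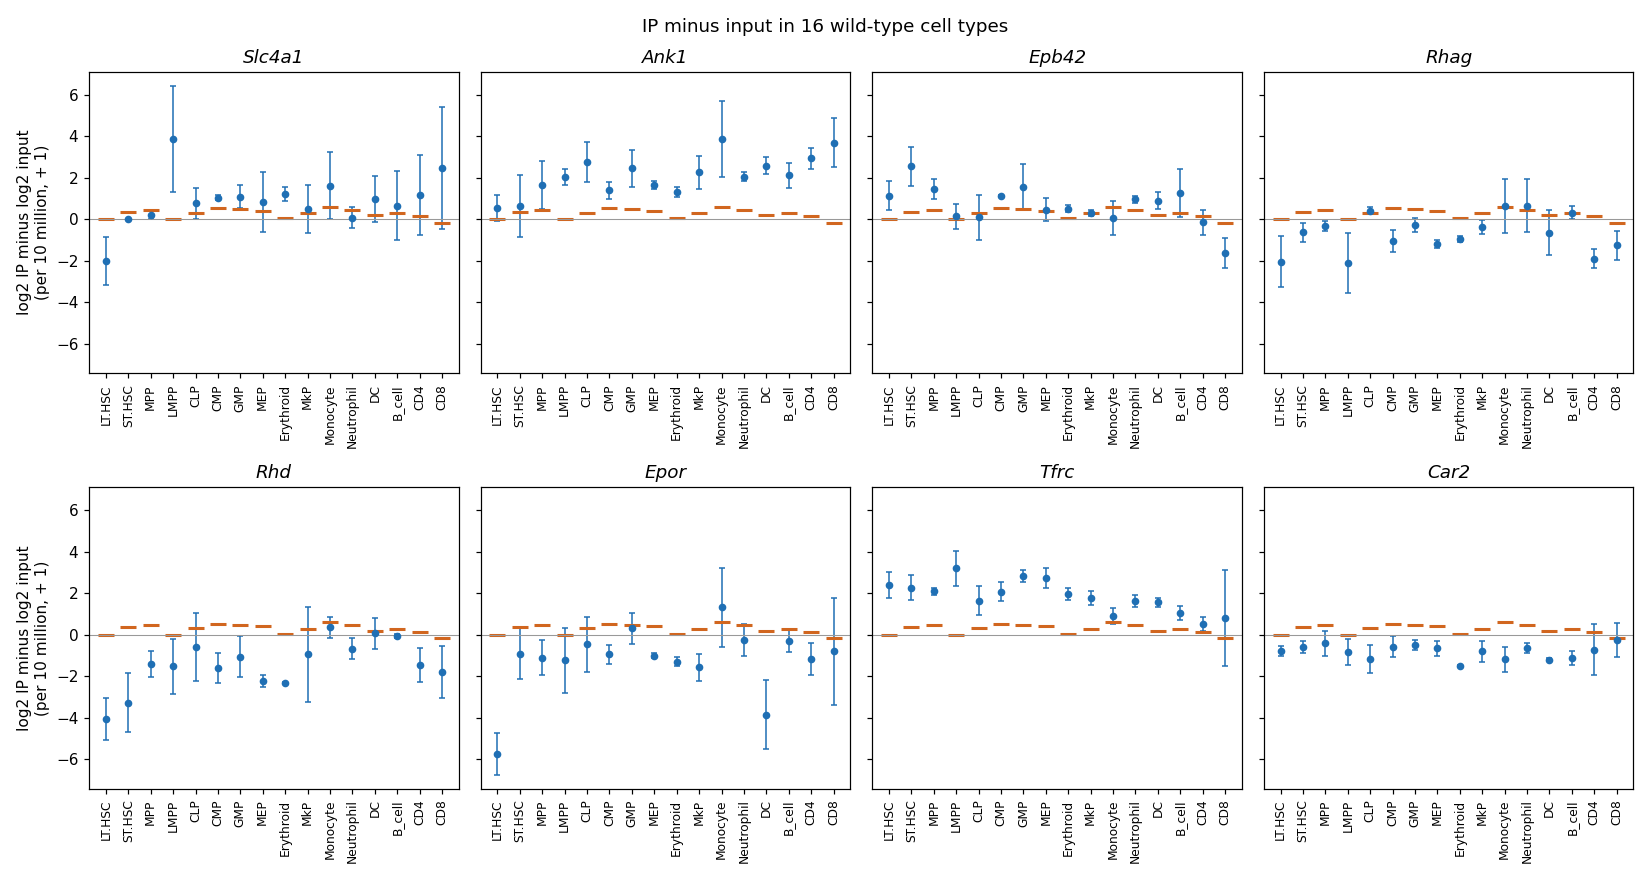
Log2 IP minus log2 input (vertical axis, per 10000000 with 1 added) of each gene in 16 wild-type cell types. Points use the mean of the 2 libraries, bars span all pairings of the 2 IP and 2 input libraries, and orange dashes are the median gene of the type; Tfrc and Ank1 lie above the dash throughout, Rhd and Car2 below it.

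In Erythroid cells the difference was 1.98 for Tfrc, 1.32 for Ank1, 1.21 for Slc4a1, 0.51 for Epb42, -0.95 for Rhag, -1.30 for Epor, -1.50 for Car2 and -2.34 for Rhd, where the median gene was at 0.05. A few genes also filled the Erythroid IP libraries, with 82.3% and 81.2% of the counts in 10 genes, against 6.26% and 6.45% in MEP. The Erythroid differences and tests therefore rest on the scaling of dominated libraries. Within the membrane complex the anchor genes and the anion exchanger lay above the median gene and the Rh pair below it. No member passed the test of Erythroid against the other 15 types (0 of 8 by limma, against 2.7% of all genes) or against MEP (0 of 8, against 0.16%), and 0 had an unadjusted p under 0.05 in either. All genes split into 92 higher and 329 lower calls in the first comparison and 3 and 22 in the second. Scaled to total counts, the medians were -1.05 and -1.07 in place of -0.20 and -0.32, the calls 10 and 4299, and 4 and 977, and 1 member passed in the first comparison.

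Among the 16 types 1 member, Epor, differed in IP minus input (F = 2.78, adjusted p = 0.0260, limma), against 27.0% of all genes, and 4 members had an unadjusted p under 0.05. Epor reads were plentiful in the LT.HSC inputs, 33.6 and 65.0 CPM, and scarce in the IP, 4 and 16 counts or 0.286 and 0.986 CPM. The difference of -5.74 put Epor at the 0.25th percentile of genes in that type. In DC the inputs held 13.5 and 21.2 CPM and the IP 3.53 and 0.376 (38 and 5 counts), a difference of -3.85 at the 0.282nd percentile. In MEP, by contrast, 260 and 267 CPM in the input stood against 126 and 119 in the IP, a difference of -1.01. Over all pairings of IP and input libraries the difference ran from -6.76 to -4.71 in LT.HSC and from -1.14 to -0.87 in MEP. The 2 LT.HSC IP libraries had a correlation of 0.745, the lowest of the atlas IP groups. Rhd was also low in LT.HSC, at -4.06 and the 1.93rd percentile. The DC inputs also held erythroid marker RNA, 102800 and 30190 normalised counts over 11 of 11 markers in the table, all above 0, against 1918 and 2041 in LT.HSC, with 10 and 11 above 0; its part in the result was not tested. Without the Monocyte libraries, where Epor read 15.9 and 0, no member passed, and over the libraries left out in turn 0 to 3 did.

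The LT.HSC result can be set beside the wild-type LT.HSC of the Mettl3 set, made separately. There Epor read 17.4 and 35.2 CPM in the inputs and 10 and 8 counts in the IP, 0.589 and 0.512 CPM. The first of these IP libraries had 94.2% of its counts in 10 genes, against 9.21% in the second. Other genes had low CPM there too, Car2 8.72 against 1300 and Tfrc 1.24 against 66.5 in the second. After TMM scaling Epor in the first was 7.92 on the log2 scale, above its input at 7.15. In the second it was 2.56, below its input at 8.02. The scaled difference in that type, -2.35, rests on the scaling of a dominated library, and only the second library had a low IP value on both scales. In the Slc4a1 panel, the high point in LMPP came from 59 and 229 IP counts over inputs of 0.98 and 12.5, values near the floor of the input.

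No member passed the test of the libraries labelled Mettl3 -/- against those labelled wild type. On average over 7 types 0 of 8 passed, against 10.1% of all genes (7.24% higher and 2.89% lower), 0 had an unadjusted p under 0.05 and the lowest adjusted p was 0.400, for Tfrc at 0.38 (SE 0.28). Within types 0 of 56 member and type pairs passed, against 0.404% of all gene and type pairs, and the change in effect from type to type passed for 0 of 8 (lowest adjusted p = 0.999995), against 0.0133%. Epor, the most precisely measured after Tfrc, was at -0.05 (SE 0.30), Car2 at 0.05 (SE 0.33), Rhd at 0.07 (SE 0.51), Epb42 at 0.06 (SE 0.48), Rhag at -0.29 (SE 0.57), Slc4a1 at 0.75 (SE 0.61) and Ank1 at -0.79 (SE 0.59). With SEs from 0.28 to 0.61 on the log2 scale, small differences were not detectable.

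**Figure D4:**
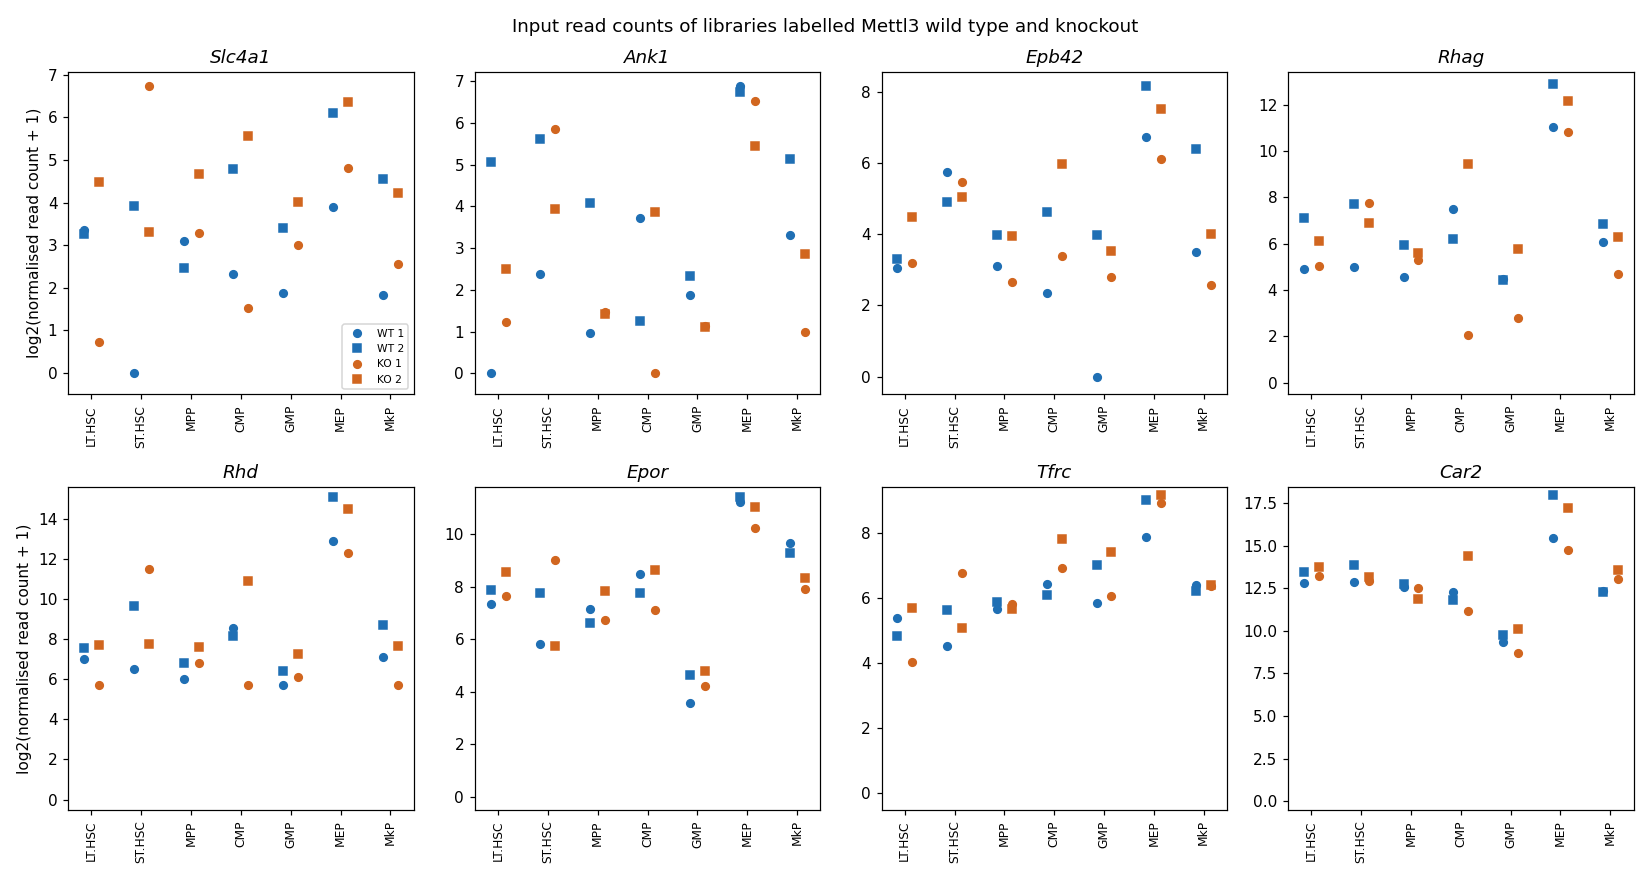
Input read counts, as log2(normalised count + 1) on the vertical axis with a separate scale per panel, in the 7 types of the Mettl3 set; blue is wild type, orange knockout, circle library 1 and square library 2. In MEP the number of the library separates Car2, Rhd and Rhag more than the genotype does.

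In MEP, where most of these genes are highest in this set, the libraries of a genotype were far apart. Rhd read 5045 and 22812 in the knockout libraries 1 and 2 and 7465 and 35170 in the wild type. Car2 read 27407 and 154551 against 44952 and 258672, and Rhag 1827 and 4591 against 2094 and 7485. For these genes library 2 was 2.51 to 5.75 times library 1 in each genotype, and the genotypes overlapped. The erythroid marker sums differed in the same direction, 20190 and 101500 in the knockout and 33510 and 98870 in the wild type. All 11 markers were above 0, and their part in these values was not tested. Taken by library number, knockout over wild type was 0.676 and 0.649 for Rhd and 0.61 and 0.597 for Car2. It was 0.872 and 0.613 for Rhag and 0.655 and 0.646 for Epb42, but 1.96 and 1.2 for Slc4a1 and 2.06 and 1.1 for Tfrc.

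Epor and the ankyrin gene were apart in MEP without passing. Epor read 1219 and 2129 in the knockout and 2382 and 2710 in the wild type (-0.66, SE 0.81), and Ank1 91.1 and 42.8 against 116 and 106 (-0.82, SE 1.57). In MkP, Epor read 240 and 320 against 814 and 627 (-1.36, SE 0.81, adjusted p = 0.659). Over the 56 pairs the knockout was wholly below the wild type in 6, wholly above in 3 and overlapping in 47. Over all 105210 gene and type pairs 17.9% were wholly below and 16.8% wholly above, so the members separated no more often than that.

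The libraries labelled knockout were uneven in ST.HSC and CMP. In ST.HSC, Rhd read 2851 and 212 in the knockout and 91.3 and 791 in the wild type, and Slc4a1 read 105 and 8.98 against 0 and 14.1. The first knockout library stood apart, and its erythroid markers summed to 48420, with 10 of 11 above 0, against 5813, 981 and 11060 in the other 3. In CMP the second knockout library stood apart, with Rhd at 1934 against 50.8 in the first, and Rhag at 694 against 3.13, beside marker sums of 13080 and 1904. The part of this marker RNA in the members' values was not tested. Without the first knockout ST.HSC and the first wild-type LT.HSC library 0 members passed, as with them.

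For IP minus input, 0 of 8 members passed between the genotypes on average over the 7 types (limma), against 0.0% of all genes, with 0 at an unadjusted p under 0.05. Tfrc ranked between the 86.0th and 99.1st percentile in wild type and between the 90.1st and 98.5th in the libraries labelled knockout. Tfrc was above the median gene in 7 of 7 types of both genotypes, as in the atlas, and Epor was below the median gene in 7 of 7 of both. The ranks of wild-type LT.HSC and ST.HSC each use a dominated IP library, the first of the type, with 94.2% and 75.8% of counts in 10 genes. In that ST.HSC library Tfrc had 7 counts, 0.411 CPM, but 8.16 on the log2 scale after TMM scaling. The second ST.HSC library had 247 counts, 14.2 CPM, and 6.72. Without the dominated LT.HSC library and the other doubted libraries 0 members passed. The scaling removes any loss of m6A that all genes share.

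In LT.HSC of the Igf2bp2 set, Epor read lower in the knockout but did not pass. Its counts were 18 and 68 in Igf2bp2 -/- and 437 and 184 in wild type, or 3.85 and 10.5 against 21.9 and 37.4 CPM, groups that did not overlap. The log2 fold change was -1.77 with an adjusted p of 0.848 (edgeR quasi-likelihood). Ank1 was at 39.5 and 34.2 against 42.1 and 69.9 CPM, and Rhd at 26.7 and 0.924 against 28.1 and 0.407, where the spread within each genotype was far wider than the gap. Of the 5 members with enough counts to test (Ank1, Epb42, Rhd, Epor, Car2) 0 passed, 0 had an unadjusted p under 0.05, and 0.0% of all genes passed. DESeq2 also called 0 members, but it called 85 of all genes higher and 66 lower. Igf2bp2 itself had 61 and 81 counts in the knockout, at least 12.5 CPM in both, and 7.11 and 53.5 CPM in wild type, so 1 wild-type library was below the knockout, and the library totals ran from 4.68 to 19.98 M.

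New RNA was measured as the T-to-C ratio after 3 h of 4sU, in percent. In MEP, Rhd had a ratio of 0.322% and 0.119%, below the median gene at 0.975%, and Car2 had 0.764% and 0.726%. The mean of Rhd was at the 21.1st percentile in MEP, 19.4th in CMP, 20.6th in MPP and 21.9th in ST.HSC. It was at the 59.2nd in LT.HSC and the 65.1st in GMP. Epor had 1.08% and 2.80% in MEP, both above the median gene, with its mean at the 80.2nd percentile. That percentile was 96.8 in ST.HSC, 60.5 in MPP, 54.5 in LT.HSC and 8.4 in CMP, and Epor had no value above 0 in GMP. In LT.HSC the order was different, with Ank1 at 1.55% and 2.84%, Tfrc at 1.38% and 1.47% and Car2 at 0.647% and 0.253%, where the median gene was at 0.793%. Tfrc was highest in CMP, at 3.70% and 2.46%, where its mean was at the 86.2nd percentile of 13909 genes. Slc4a1 was above 0 in 2 of 12 libraries, both of MEP, and Epb42 in 1, so neither was tested.

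**Figure D5:**
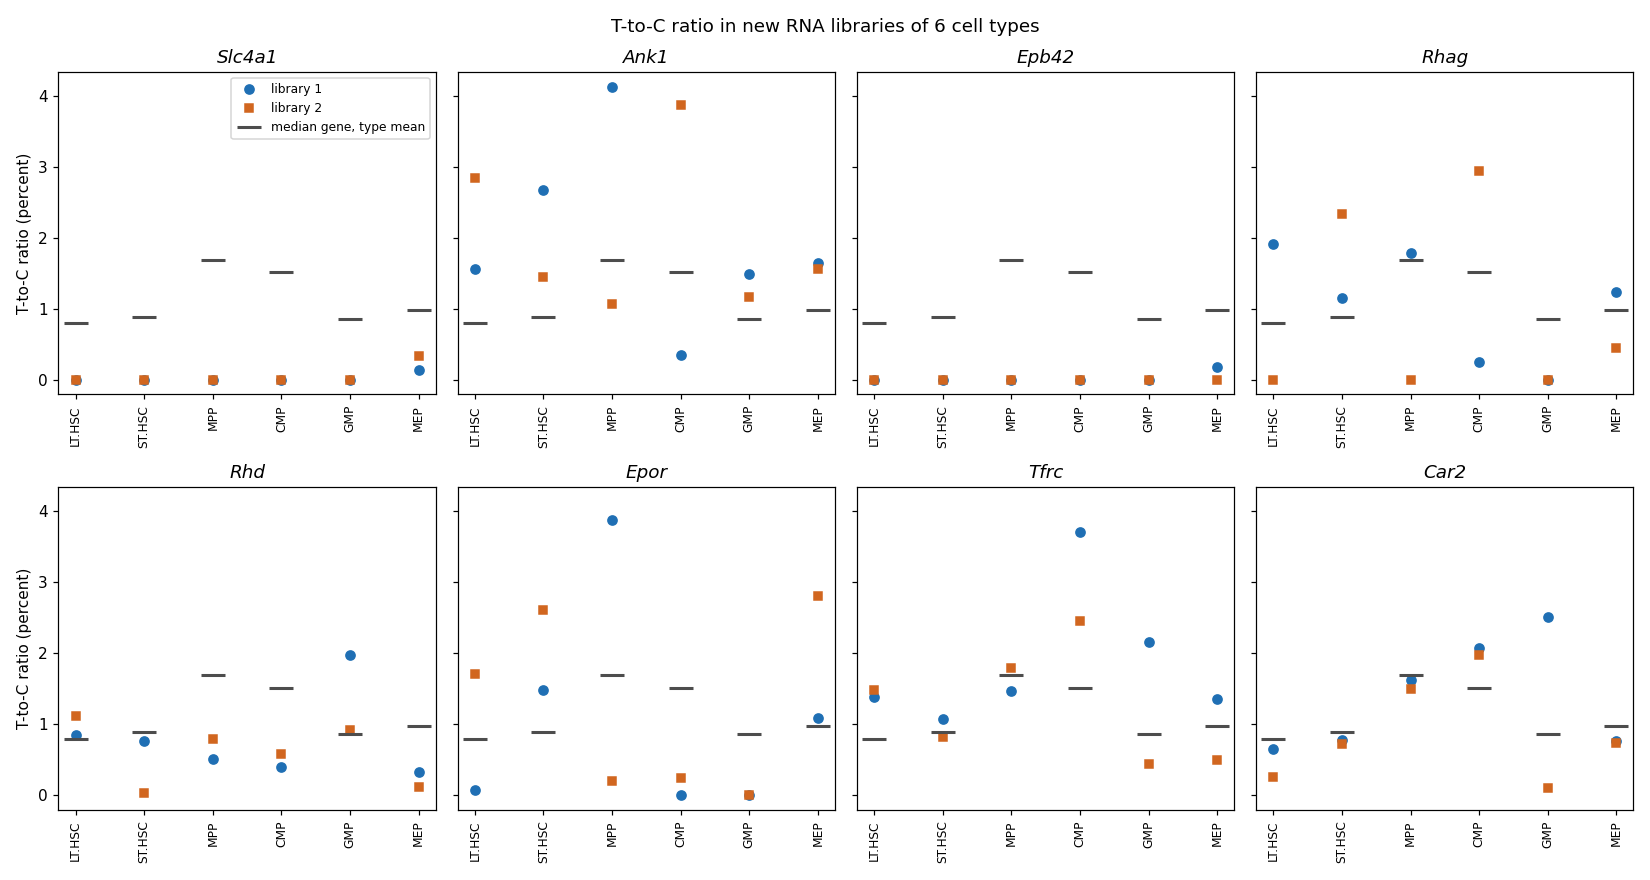
T-to-C ratio after 3 h of 4sU (percent, vertical axis) of each gene in 2 libraries of 6 wild-type cell types, with the median gene's mean ratio as a dark dash. Rhd lies below the dash in both libraries of MEP, CMP, MPP and ST.HSC. Epor lies above it in both libraries of MEP and ST.HSC, and the 2 libraries of a type are often far apart.

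No member passed the test of MEP against the other 5 types (0 of the 6 tested by limma, 0 at an unadjusted p under 0.05, against 0.0216% of all genes). The largest difference was that of Epor, 1.98 (SE 1.12, adjusted p = 0.702), and Rhd was at -1.27 (SE 0.80, adjusted p = 0.725). Among the 6 types 0 of 6 passed, against 0.0% of all genes. The depth behind these ratios is unknown, and the 2 libraries of a type were often several times apart, as for Ank1 in CMP (0.353% and 3.86%) and Car2 in GMP (2.50% and 0.093%).

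After the 24 h pulse and chase, the deposited averages hold few values for these genes and no replicates, so no rate was taken. Tfrc in LT.HSC has a value at all 7 times: 0.00813%, 0.533%, 0.00665%, 0.0198%, 0.0129%, 0.0056% and 0.119% at 0.5, 1, 3, 6, 9, 12 and 24 h. The highest was at 1 h and the order was not one of steady fall. The median gene with a value in LT.HSC was likewise highest at 1 h, 0.161%, and next at 24 h, 0.0919%. Car2 in MkP had values at 6 of 7 times, 0.714% at 0.5 h, 0.101% at 1 h, 0.264% at 3 h, 0.0115% at 6 h, 0.00788% at 9 h and 0.0105% at 24 h, the first 3 above the last 3. At these times the median gene with a value in MkP split in the same way. It was at 0.0697%, 0.0526% and 0.0446%, then at 0.0165%, 0.0157% and 0.0158%. In LT.HSC Car2 was between 0.0112% and 0.0823% at the 5 times with a value.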

How the data were processed

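The members, given by name, the gene lists and the tests were chosen with earlier results of these data known, so no list is independent support. Per the submitters' processing notes, fastp, Trimmomatic, kallisto and GRCm38 were used; their versions and roles are not stated there. Input tables hold a normalised signal deposited by the authors, reads divided by a size factor per library. Whole reads, within a tolerance of 0.1, could be recovered from 100% of values; the step of the second atlas GMP library was too near 1, and that library was left out of the edgeR test on these reads. The authors deposited whole counts for the atlas IP and Igf2bp2 libraries and estimated counts for the Mettl3 IP libraries, which were rounded. T-to-C ratios were deposited as a fraction and are printed in percent, with unknown depth.

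Inputs were tested with limma 3.58.1 (R 4.3.3) on log2(value + 1), with all libraries of a table sharing 1 spread estimate, for genes of at least 10 in at least 2 libraries. Fold changes on this scale understate those of low genes. IP minus input was tested with limma on log2 values per 10000000 after TMM scaling within each table, Igf2bp2 counts with edgeR 4.0.16 (quasi-likelihood) and ratios with limma as log2(percent + 0.1), where at least 6 libraries were above 0. Adjusted p-values (Benjamini-Hochberg, threshold 0.05) cover all genes of a table. Simulated data were used to try Erythroid against MEP (input and IP minus input), the Mettl3 average of inputs, Igf2bp2 by edgeR and new RNA in MEP. The simulated ratios were all above 0, unlike the deposited ones. The other comparisons, the F tests and DESeq2 were not simulated. Alternatives were a pseudocount of 10 (1 for percent), no filter, quantile or total scaling, a replicate block, edgeR on reads, DESeq2 1.42.0 and leaving out libraries. Named genes are the 8 members, the 2 highest and 2 lowest called genes of each list and comparison (some are not reported here), and the 3 genes most like each member (highest Pearson r over the 16 type means of log2 values, among genes well expressed in some type, without predicted genes). No 2 libraries of a group were identical. The tests fixed in the design were kept.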

Additional observations from a re-analysis of the deposited data

Results flagged for a closer look

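The estimate for Car2 in the Mettl3 inputs had opposite signs in 2 cell types, with every knockout library on the same side of both wild-type libraries in each. In MkP it read 8311 and 12073 in the libraries labelled knockout and 5189 and 5028 in the wild type, a log2 difference of 0.97 (SE 0.87). In MPP it read 5864 and 3699 against 6184 and 6864, a difference of -0.48 (SE 0.87). Neither difference passed (adjusted p = 0.832 and 0.850, limma), and the test of a Mettl3 effect that differs among the 7 types gave an adjusted p of 0.999995 for Car2.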

How the results depend on the processing

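With 2 libraries per group, many calls near the threshold rest on each library. All 8 members stayed called in Erythroid against the other 15 types under every setting run, and so did 3 of 7 in Erythroid against MEP, 5 of 8 in MEP against CMP, 6 of 7 in MkP against MEP and 0 of 2 in LT.HSC against MPP. The members called in LT.HSC against MPP, 2 in the report, were 4 with a pseudocount of 10, 4 after quantile normalisation, and 5 both with edgeR on recovered reads and with inputs scaled to their totals. Scaled to totals, a setting added after seeing the data, Erythroid against MEP gave 4 calls in place of 7. After quantile normalisation Car2 reversed there, to -1.28. The IP minus input test among the 16 types, with 1 call, gave 2 with a pseudocount of 10, 6 with total count scaling and 0 without the Monocyte libraries, and Erythroid against the other 15 types gave 1 in place of 0 with total count scaling. Leaving out each library gave 5 to 5 calls in Erythroid against MEP, 5 to 6 in MEP against CMP, 6 to 7 in MkP against MEP, 0 to 1 in LT.HSC against MPP and 0 to 3 in the IP minus input test among types, each from fewer samples. The cause of the other changes was not tested. In the Mettl3, Igf2bp2 and new RNA comparisons 0 members were called under every setting run, DESeq2 included.

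Counts over all genes also moved. In LT.HSC against MPP, 840 higher calls became 1636 with a pseudocount of 10. In IP minus input, Erythroid against the other 15 types gave 333 higher and 454 lower without the filter, in place of 92 and 329, and Erythroid against MEP 41 and 73 in place of 3 and 22, or 10 and 29 with a pseudocount of 10. The Mettl3 average gave 272 lower calls without the filter in place of 434, and 718 higher in place of 1088 when scaled to totals. Within MEP, 321 higher calls became 191 with a pseudocount of 10, 81 after quantile normalisation and 165 with edgeR, and within LT.HSC 60 became 121, 306 and 0. For Igf2bp2, 0 calls by edgeR became 36 higher and 8 lower without the filter, 8 and 0 with the block, and 85 and 66 with DESeq2. New RNA in MEP gave 28 higher and 12 lower without the filter, in place of 0 and 3.

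Samples share replicate numbers, and whether these pair them was not settled. Same-numbered knockout and wild-type Mettl3 libraries had correlations of their deviations from -0.107 to 0.223 over the 7 types, the highest in MEP. The correlations were 0.023 to 0.238 for atlas types and 0.011 for the Igf2bp2 groups. In MEP the same-numbered knockout to wild-type ratios were nearly equal for Car2, Rhd and Epb42 and further apart for the other members. With the replicate number as a block the member counts were 8, 7, 8, 7 and 2 in the 5 atlas comparisons and 1 in the IP minus input test among types, as without it, and 0 in the Mettl3 and Igf2bp2 comparisons. The Mettl3 average over all genes moved to 1261 higher and 649 lower with the block. With 1 mean per genotype and replicate number in the Mettl3 inputs, 1 gene of all was higher and 0 lower, in place of 1088 and 434, and 0 members passed (limma, a setting added after seeing the data, as were those without Monocyte or the doubted Mettl3 libraries). At 0 to 30 reads in MEP, CMP and MkP, Slc4a1 is limited by depth.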

Other observations

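The context lists differed in Erythroid against the other 15 types, by limma on the deposited scaling, where 22.9% of all genes were higher and 25.1% lower. Of 26 other membrane and skeleton genes 22 were higher and 3 lower, with the glucose transporter Slc2a1 at -4.64. The erythropoietin receptor signalling list was split evenly, 8 of 20 higher and 8 lower, with a median of -0.47 against -0.17 for all genes. Scaled to totals the list had 3 higher and 12 lower, where 1163 of all 16519 genes were higher and 10358 lower. The highest genes of this list were Bcl2l1, at 7.91, and Erfe, the hormone by which erythroid cells call for iron, at 6.12, and its lowest were Socs3 at -2.61 and Csf2rb at -1.74. Bcl2l1 read 95930 and 111646 in Erythroid but 114 and 223 in MEP, fewer than the 918 and 957 of LT.HSC. Of 12 other carbonic anhydrases 1 was higher, Car1 at 6.54, and 4 were lower; Car1 read 39344 and 37311 in Erythroid and 57506 and 48174 in MEP, where Car2 read 461747 and 455293 and 92416 and 70538.

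Trf, the ligand of Tfrc, was low in MEP. It read 19.7 and 23.1 in MEP, 3049 and 4183 in CMP, 1981 and 1483 in MkP and 1272 and 1112 in Erythroid, with no overlap between MEP and the other 3 types. The log2 difference was -7.32 in MEP against CMP (adjusted p = 8.04e-12, limma), where Tfrc was at 2.12. In the Mettl3 inputs the erythropoietin receptor signalling list had 3 of 20 genes higher and 1 lower in the libraries labelled knockout on average over the 7 types, where 7.24% of all genes were higher and 2.89% lower. With 1 mean per genotype and replicate number, 0 genes of the list passed, and 1 gene of all was higher and 0 lower in place of 1088 and 434. Csf2rb was higher in MkP at 4.82 (SE 0.79, adjusted p = 0.0107, limma). That call was not made by edgeR on recovered reads, which called 0 genes in MkP against 15 higher and 2 lower by limma.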
